A study of Mus musculus with 3 samples.

Results

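The cell cycle brakes and accelerators described here are 10 genes of the 18245 genes counted in cultured mouse epicardial cells. They were chosen by symbol, with earlier results of these data known. They are 5 inhibitors of cyclin-dependent kinases (CDK), Cdkn1a, Cdkn1b, Cdkn2a, Cdkn2b and Cdkn2c, the tumour suppressor Trp53 with its antagonist Mdm2 and its target Ccng1, and the D cyclins Ccnd1 and Ccnd2. All 10 were found in the table. RNA came from 3 kinds of cell, each with 3 libraries. Cardiosphere-derived cells (CDC) grew from ventricle epicardium explants of 6-week-old C57BL/6 mice in medium with 20% serum, by way of floating spheres, and had no inhibitor added. CDC-EpiC is an epithelial clone that was picked from CDC after 2 weeks in 10 µM SB-431542, a drug that blocks TGF-beta receptor kinases. Primary epicardial cells (pEpiC) were taken by enzyme digestion from hearts of C57BL/6 mice aged 6 to 8 weeks and kept in 10% serum without the inhibitor. The methods of the study place CDC and pEpiC at passage 3, name primary CDC and not the telomerase-immortalised line as the source of the clone, and give no passage for the clone. Origin, medium, serum and culture history differ between the kinds and cannot be told apart from the kind of cell.

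A cell commits to division when D cyclins, with CDK4 or CDK6, phosphorylate the retinoblastoma protein and so release E2F factors. The INK4 proteins, among them p15 from Cdkn2b, p16 from Cdkn2a and p18 from Cdkn2c, bind CDK4 and CDK6, while p21 from Cdkn1a and p27 from Cdkn1b act on complexes of cyclins and CDKs. The Cdkn2a gene also encodes p19Arf, which shields p53 from Mdm2, and p53 in turn drives Cdkn1a, Mdm2 and Ccng1. Cdkn2a and Cdkn2b are known to switch on in cells kept in culture or grown old, and the epicardium of the adult heart is otherwise a quiet layer of cells.

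Library totals were 22008833 to 22756045 expected counts, and pairs of libraries of a kind differed by 4.72 to 21.8 times what sampling of reads alone would give (chi-square per degree of freedom). The labels list 1 sample per kind and do not tie its 3 columns to animals or cultures, and the clone libraries are of 1 clone, so the spread may be partly technical and p-values measure only the spread between these libraries. They are used as replicates here (n = 3), since RNA is said to have been extracted from separate samples, although the methods of the study give fewer biological replicates than there are columns. Of 8 epicardial markers, each was counted in every library, with sums of 641 to 683 CPM (counts scaled to a common library size) in CDC, 5758 to 6728 CPM in CDC-EpiC and 556 to 590 CPM in pEpiC. They did not move together: in pEpiC vs CDC Wt1, Tcf21, Aldh1a2 and Lrrn4 were higher (1.90-fold to 8.40-fold) and Tbx18, Upk3b, Msln and Upk1b lower, while in CDC-EpiC vs CDC 6 were higher, Tbx18 was lower and Aldh1a2 was not called. The sum of 10 macrophage markers was 57.8 to 61.2 CPM in CDC, 22.6 to 25.1 CPM in CDC-EpiC and 308 to 858 CPM in pEpiC, where library 1 held 2.46 to 3.08 times the mean of the other libraries for each of the 10. In CDC that sum was mostly Lyz2 (37.7 ± 1.91 CPM) and Csf1r (19.6 ± 1.05 CPM), and in the clone Cd68 (13.3 ± 1.06 CPM) and Csf1r (9.38 ± 0.571 CPM), while Ptprc, Adgre1 and Fcgr1 had at most 1 count in any library of either kind. Endothelial markers (10 genes) summed to 7.52 to 8.62 CPM in CDC, 8.55 to 9.99 CPM in CDC-EpiC and 24.5 to 26.8 CPM in pEpiC, where Tek gave 16.3 to 18.9 CPM and the defining Pecam1 and Cdh5 were at 0.349 and 0.437 CPM. Cardiomyocyte markers (10 genes) summed to 9.78 to 29.1 CPM in CDC, 12.1 to 13.9 CPM in CDC-EpiC and 138 to 155 CPM in pEpiC, there almost all Tnnt2 (144.6 ± 8.09 CPM), with Myh6 at 1 count or none. In the CDC libraries Myh6 had 191, 189.6 and 0 counts. The part of these cell types in the results was not tested. CDC libraries 1 and 2 held 107 and 128 CPM of 7 red cell and liver genes, against 23.3 CPM in CDC library 3. In RNA from mixed cultures, fewer cells of a type and less RNA per cell cannot be told apart.

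Between these cultures most genes differ, which is the background for every count that follows. With edgeR's quasi-likelihood test at a Benjamini-Hochberg adjusted p under 0.05, 78.3% of the genes tested were called in pEpiC vs CDC, 68.8% in CDC-EpiC vs CDC and 81.9% in CDC-EpiC vs pEpiC. Cdkn2a and Cdkn2b passed the filter on low counts through pEpiC alone, so their calls were fixed by the filter and are left out of the counts here. Of the 8 genes counted in every library, 5 were called in pEpiC vs CDC, each of them lower. In CDC-EpiC vs CDC 7 were called, 2 higher and 5 lower, and in CDC-EpiC vs pEpiC all 8, 4 higher and 4 lower. With this background the results rest on the size and direction of each gene's difference rather than on the number that differ. The groups did not overlap for 6, 7 and 8 of these genes in the same order, against 81.5%, 72.1% and 84.0% of all genes tested. By direction, 39.8% of all genes tested were called higher and 38.5% lower in pEpiC vs CDC. The shares were 34.2% and 34.6% in CDC-EpiC vs CDC, and 40.3% and 41.5% in CDC-EpiC vs pEpiC. Counts of listed genes below stand against these shares.

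**Figure D1:**
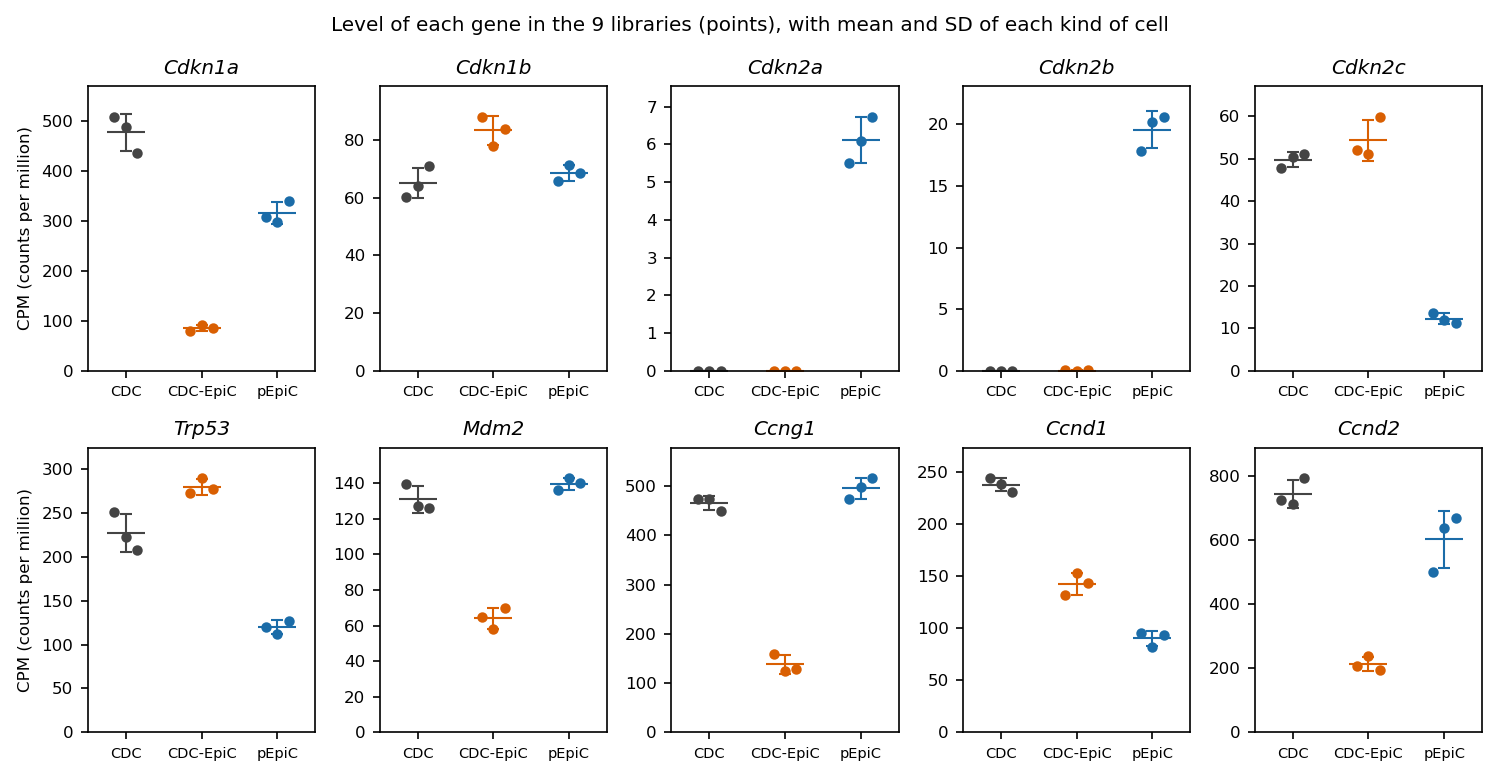
Level of the 10 genes in each library, in CPM on linear axes that start at 0. Points are libraries, horizontal lines are means and error bars are SD (n = 3 per kind). Cdkn2a and Cdkn2b lie at or next to 0 in CDC and CDC-EpiC, and Cdkn1a, Mdm2, Ccng1 and Ccnd2 are lowest in CDC-EpiC.

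RNA of Cdkn2a and Cdkn2b was found in pEpiC and was at or next to 0 in CDC and in the clone. For Cdkn2a, the gene of p16 and p19Arf, the 3 pEpiC libraries held 127, 140 and 154 counts (6.11 ± 0.618 CPM, SD, n = 3), and all 6 libraries of CDC and CDC-EpiC held 0. For Cdkn2b, the gene of p15, pEpiC held 412, 463 and 471 counts (19.5 ± 1.48 CPM), the CDC libraries held 0, and the clone libraries held 1, 0 and 1. No library of CDC or CDC-EpiC came near a pEpiC library for either gene. A count of 0 allows up to 3 counts per library, or 0.137 CPM in CDC and 0.134 CPM in CDC-EpiC, counting error only. Against that floor Cdkn2a was at least 44.7-fold higher in pEpiC than in CDC and at least 45.7-fold higher than in CDC-EpiC. Cdkn2b was at least 143-fold higher in pEpiC than in CDC, and its ratio to the clone was 657 (exact 95% interval 181 to 5429, counting error only). No p-value is given for either gene, since each enters a test only through the counts of pEpiC. Within pEpiC, the length-scaled level (TPM) of Cdkn2b was 2.06 ± 0.0957 times that of Cdkn2a. Both genes had their lowest count in pEpiC library 1, the library with the most macrophage RNA. An order over 3 libraries with counts this close does not tell which cells held this RNA, and that was not tested.

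Both genes lie on the minus strand of chromosome 4 (GRCm38, the same build as the mm10 named in the labels), Cdkn2a at chr4:89274473-89294619 and Cdkn2b at chr4:89306289-89311032, 11.67 kb apart. The sequences that precede their start sites are shown because their RNA was counted in 1 kind of cell of the 3. Cdkn2a has a pair of starts, the upstream one for p19Arf (exon 1β) and the inner one for p16 (exon 1α), and the counted rows do not separate them, since the annotated transcripts of 852 and 895 bases share their remaining exons. Each run is the 250 bases before a RefSeq start, 5′ to 3′ on the gene's strand. Capitals mark matches to the GC box (GGGCGG), the E2F site (TTTCCCGC) and the cAMP response element (TGACGTCA), searched on both strands.
Cdkn2a p19Arf start, chr4:89294620-89294869, minus strand: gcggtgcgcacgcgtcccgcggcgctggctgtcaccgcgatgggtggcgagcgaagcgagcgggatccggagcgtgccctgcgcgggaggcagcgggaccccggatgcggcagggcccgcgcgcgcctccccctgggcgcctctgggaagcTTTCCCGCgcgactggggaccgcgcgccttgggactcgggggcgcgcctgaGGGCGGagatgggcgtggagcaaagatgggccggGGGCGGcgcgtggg
Cdkn2a p16 start, chr4:89282193-89282442, minus strand: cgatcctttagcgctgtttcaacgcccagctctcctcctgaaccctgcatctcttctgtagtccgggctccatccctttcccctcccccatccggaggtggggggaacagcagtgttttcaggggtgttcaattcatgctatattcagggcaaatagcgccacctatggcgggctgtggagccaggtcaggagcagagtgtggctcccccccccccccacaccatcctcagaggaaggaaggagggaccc
Cdkn2b start, chr4:89311033-89311282, minus strand: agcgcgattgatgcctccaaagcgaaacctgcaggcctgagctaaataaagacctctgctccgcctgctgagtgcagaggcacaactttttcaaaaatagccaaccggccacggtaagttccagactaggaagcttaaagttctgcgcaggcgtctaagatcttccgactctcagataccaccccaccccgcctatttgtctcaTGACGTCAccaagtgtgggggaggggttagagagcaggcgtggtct
The window before the p19Arf start held 40 CpG dinucleotides, 1.08 times the number its base composition gives, and the letters of 1 E2F site and 2 GC boxes. The window before the p16 start held 7 CpG (0.316 times) and none of the motifs, and that of Cdkn2b held 12 CpG (0.670 times) and 1 cAMP response element. Among 32851 promoter windows of the same length, 32.7% held a GC box, 0.895% the E2F letters and 1.55% the cAMP response element. A match is a description of letters and not a measured site.

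The genes around the pair were read to see whether the surrounding stretch of chromosome 4 was transcribed, a window chosen after the values of Cdkn2a and Cdkn2b had been seen. Of 28 other genes within 1 Mb, 4 had at least 100 counts in every library, Focad, Hacd4, Klhl9 and Mtap, and the other 24, many of them interferon genes, had at most 36.92 counts in any library. Mtap, a methionine salvage enzyme and the nearest of the 4, ends 93.4 kb from Cdkn2a. It held 3018, 3049 and 3410 counts in CDC, 1938, 1737 and 2100 in CDC-EpiC and 1331, 1458 and 1371 in pEpiC. Mtap was thus highest where Cdkn2a and Cdkn2b were at 0. It was lower in pEpiC than in CDC by 1.30 on the log2 scale (SE 0.0654, edgeR adjusted p = 5.51e-08), and lower in the clone than in CDC by 0.75 (SE 0.0823, adjusted p = 9.97e-07). All 4 expressed neighbours lie on 1 side of the pair. On the other side, Dmrta1 and Zfp352 had at most 1.06 counts in any library. RNA counts cannot tell a silent stretch of DNA from a lost one, and DNA was not analysed here.

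**Figure D2:**
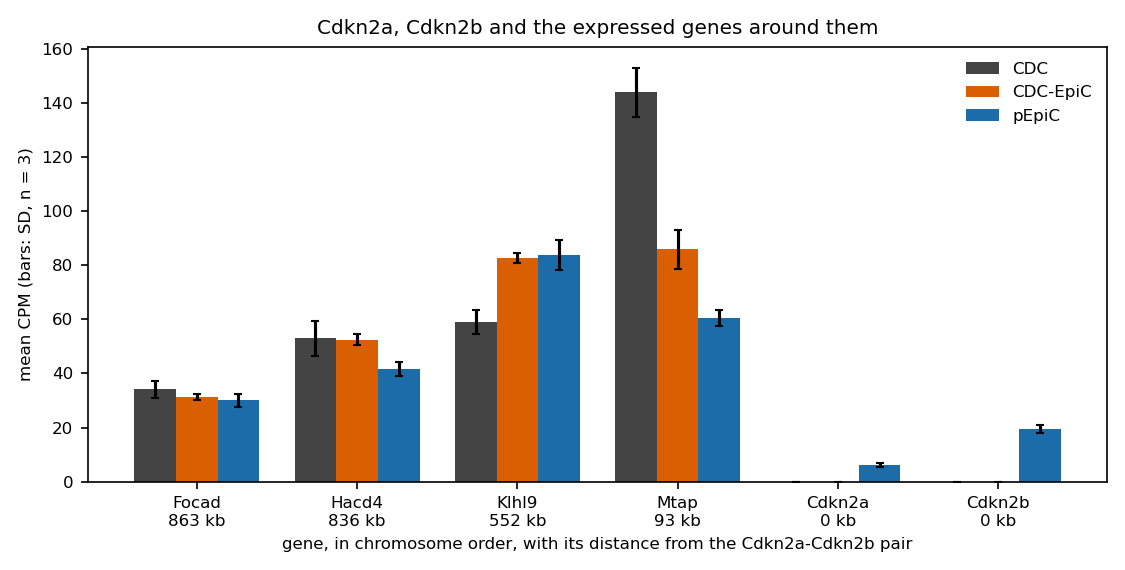
Mean CPM (bars, with SD, n = 3) of Cdkn2a, Cdkn2b and the 4 genes within 1 Mb that had at least 100 counts in every library, in chromosome order, with the distance from the pair in kb. The 4 neighbours are counted in all 3 kinds, and the pair in pEpiC alone apart from 2 reads of Cdkn2b in the clone.

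Genes that are known to act on the locus, in either direction, were read from a list of 13. In pEpiC vs CDC 7 were higher, 4 lower and 2 not called, and in CDC-EpiC vs CDC the counts were again 7, 4 and 2. Over all genes tested, 39.8% were higher and 38.5% lower in the first comparison, and 34.2% and 34.6% in the other. Kdm6b, a demethylase of histone H3 lysine 27, was higher in pEpiC than in CDC (log2 change 1.26, SE 0.0708, edgeR adjusted p = 1.15e-07) and higher in the clone than in CDC (0.74, SE 0.0940, adjusted p = 4.79e-06). Ezh2, the methylase of the same residue, was lower in both (−1.31, SE 0.0898, adjusted p = 4.70e-07, and −0.77, SE 0.110, adjusted p = 1.70e-05). Id1, a helix-loop-helix factor, was lowest in pEpiC. It was at 88.2 ± 12.5 CPM in CDC, 245 ± 11.5 CPM in CDC-EpiC and 23.9 ± 2.11 CPM in pEpiC. Tbx3, also on the list, was higher in pEpiC than in CDC (log2 change 0.63 to 1.43 over the main fit and its alternatives). The part of these genes in the levels of Cdkn2a and Cdkn2b was not tested.

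Among the other inhibitors, Cdkn1a differed most between the clone and CDC. Cdkn1a, the gene of p21, measured 509, 488 and 437 CPM in the CDC libraries, 79.6, 91.8 and 86.7 CPM in CDC-EpiC and 309, 298 and 340.1 CPM in pEpiC. CDC was highest and the clone lowest, with no overlap between any kinds. The log2 change of CDC-EpiC vs CDC was −2.48, SE 0.0900, edgeR adjusted p = 2.80e-12, a 5.58-fold lower level. Against pEpiC the clone was 3.68-fold lower (−1.88, SE 0.0698, edgeR adjusted p = 5.12e-09), and pEpiC was 1.56-fold lower than CDC (−0.64, SE 0.0802, edgeR adjusted p = 3.48e-05). The last of these is scale dependent, since on log2(TPM + 1) values it was −0.14 with a limma adjusted p of 0.0794. On those values the median of all genes was 0.41, against 0.02 in counts. The counts and the length-scaled values imply a mean transcript length of 1909 to 1919 bases for Cdkn1a in all 9 libraries. The 5 annotated transcripts measure 922 and 958 bases from the upstream start, 1913 and 2080 bases from at or near the second start, and 1172 bases from a start further in, and a mean length does not resolve a mixture of them.

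Cdkn1b and Cdkn2c moved differently from Cdkn1a. Cdkn1b, the gene of p27, measured 60.3, 64.1 and 70.8 CPM in CDC, 88.1, 77.9 and 83.7 CPM in CDC-EpiC and 65.6, 71.4 and 68.6 CPM in pEpiC. The clone lay above both other kinds by a small margin (log2 change 0.35, SE 0.0816, edgeR adjusted p = 0.00140, against CDC, and 0.28, SE 0.0592, edgeR adjusted p = 0.00147, against pEpiC). Without CDC libraries 1 and 2, which leaves 1 CDC library, the difference from CDC was 0.23. On log2(TPM + 1) values the difference from pEpiC was −0.10, with a limma adjusted p of 0.191, where the median of all genes was −0.33. pEpiC and CDC overlapped, with a log2 difference of 0.03 and a 95% interval of −0.10 to 0.17, but 0.53 (limma adjusted p = 3.84e-04) on log2(TPM + 1) values, where the median of all genes was 0.41.

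Cdkn2c, the gene of p18, was low in pEpiC alone. It measured 47.9, 50.4 and 51.1 CPM in CDC, 52.0, 51.1 and 59.9 CPM in CDC-EpiC and 13.7, 12.1 and 11.2 CPM in pEpiC. pEpiC was 4.16-fold lower than CDC (−2.06, SE 0.0816, edgeR adjusted p = 1.14e-08) and the clone 4.39-fold higher than pEpiC (2.13, SE 0.0913, edgeR adjusted p = 1.29e-08). The pattern over the kinds is thus the opposite of that of Cdkn2a and Cdkn2b, its relatives in the INK4 family. Between the clone and CDC the counts overlapped (log2 difference 0.12, 95% interval −0.04 to 0.28). On log2(TPM + 1) values the same difference was 0.32 with a limma adjusted p of 0.00543, and the mean transcript length implied for Cdkn2c was 1605 to 1700 bases in the clone against 1797 to 1836 bases in CDC.

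Of the CDK inhibitors that are not among the 10, Cdkn2d, the gene of p19 of the INK4 family, was at 35.3 ± 3.75 CPM in CDC, 18.2 ± 1.53 CPM in CDC-EpiC and 7.79 ± 1.86 CPM in pEpiC. It was lower in pEpiC than in CDC (−2.22, SE 0.148, edgeR adjusted p = 3.79e-07) and in the clone than in CDC (−0.96, SE 0.0962, adjusted p = 3.54e-07). Cdkn1c, the gene of p57, was at 0.743 ± 0.426 CPM in CDC, 0.282 ± 0.0478 CPM in CDC-EpiC and 8.46 ± 1.35 CPM in pEpiC. It was higher in pEpiC than in CDC (log2 change 3.45, SE 0.296). It had too few counts for a test between the clone and CDC. No p-value is given for it, since it passed the filter on low counts only through pEpiC.

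Per length, the inhibitors together were at their lowest in the clone. The summed TPM of the 7 inhibitor genes was 587 ± 12.3 in CDC, 236 ± 12.8 in CDC-EpiC and 562 ± 23.3 in pEpiC (n = 3 each), where CDC and pEpiC overlapped. That overlap depends on the scale, since the median of all genes in pEpiC vs CDC was 0.41 on log2(TPM + 1) values and 0.02 in counts. Cdkn1a made up 75.0 ± 1.95% of that sum in CDC and 71.1 ± 1.70% in pEpiC, but 35.4 ± 2.78% in the clone. There Cdkn1b with 27.2 ± 1.74% and Cdkn2c with 25.8 ± 1.10% followed, and these 2 overlapped in TPM over the clone libraries while Cdkn1a lay above both. Cdkn2a and Cdkn2b together made up 9.09 ± 0.650% of the sum in pEpiC.

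**Figure D3:**
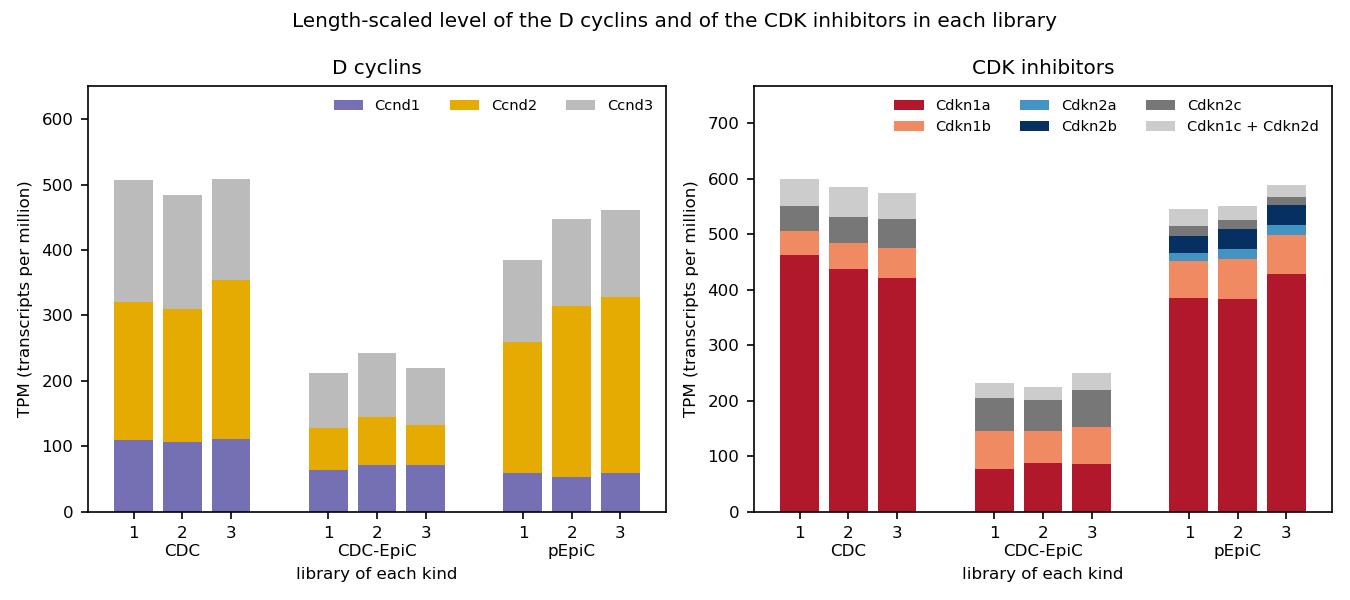
TPM of the 3 D cyclins (left) and the 7 CDK inhibitor genes (right) in each library, stacked, on linear axes that start at 0. Both stacks are lowest in CDC-EpiC, where Cdkn1a and Ccnd2 take smaller shares than in CDC or pEpiC, and Cdkn2a and Cdkn2b are seen in pEpiC alone.

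In the clone, Trp53 was higher than in the other kinds while Cdkn1a, Mdm2 and Ccng1 were lower. In pEpiC vs CDC, Trp53 and Cdkn1a were both lower in counts, and Mdm2 and Ccng1 were not called. Trp53 measured 251, 222 and 207 CPM in CDC, 272, 289 and 277 CPM in CDC-EpiC and 120.2, 112 and 127 CPM in pEpiC. The clone was highest and pEpiC lowest, without overlap. The log2 change was 0.30, SE 0.0833, edgeR adjusted p = 0.00542, in CDC-EpiC vs CDC, 1.22, SE 0.0581, edgeR adjusted p = 2.70e-08, in CDC-EpiC vs pEpiC, and −0.97, SE 0.0832, edgeR adjusted p = 2.29e-06, in pEpiC vs CDC.

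Mdm2, the ubiquitin ligase that removes p53 and is itself a p53 target, measured 139, 127 and 126 CPM in CDC, 64.8, 58.1 and 69.8 CPM in CDC-EpiC and 136, 143 and 139.8 CPM in pEpiC. The clone stood apart from the other kinds, which overlapped. It was 2.05-fold below CDC (−1.03, SE 0.0836, edgeR adjusted p = 3.36e-08) and 2.18-fold below pEpiC (−1.12, SE 0.0661, edgeR adjusted p = 1.25e-07). Ccng1, the gene of cyclin G1, another p53 target, measured 474, 473 and 449 CPM in CDC, 160.1, 125 and 129 CPM in CDC-EpiC and 474, 498 and 517 CPM in pEpiC. Again the clone was low, 3.38-fold below CDC (−1.76, SE 0.0965, edgeR adjusted p = 3.47e-10) and 3.60-fold below pEpiC (−1.85, SE 0.0935, edgeR adjusted p = 4.22e-08). Between pEpiC and CDC the log2 difference was 0.05 for both genes, with 95% intervals of −0.07 to 0.17 for Mdm2 and −0.08 to 0.17 for Ccng1. On log2(TPM + 1) values these differences were 0.56 and 0.50, where the median of all genes was again 0.41.

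Set against Trp53 RNA within each library, Mdm2 and Cdkn1a were lowest in the clone. The p53 protein was not measured here. The TPM ratio of Mdm2 to Trp53 was 0.320 ± 0.0187 in CDC, 0.127 ± 0.0145 in CDC-EpiC and 0.649 ± 0.0516 in pEpiC. The ratio of Cdkn1a to Trp53 was 1.97 ± 0.0769, 0.286 ± 0.0121 and 2.45 ± 0.0512 in the same order. Neither ratio overlapped between kinds. Trp53 was first of the 10 genes by TPM in the clone (291 ± 7.66 TPM), clear of Cdkn1a in second place (83.5 ± 5.57 TPM). In CDC it lay between Ccng1 and Ccnd2 and overlapped with both, and Cdkn1a was first with 440.5 ± 20.7 TPM. In pEpiC Cdkn1a led with 399.6 ± 25.8 TPM, and Trp53 came after Ccng1 and Ccnd2 with 163 ± 9.06 TPM.

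**Figure D4:**
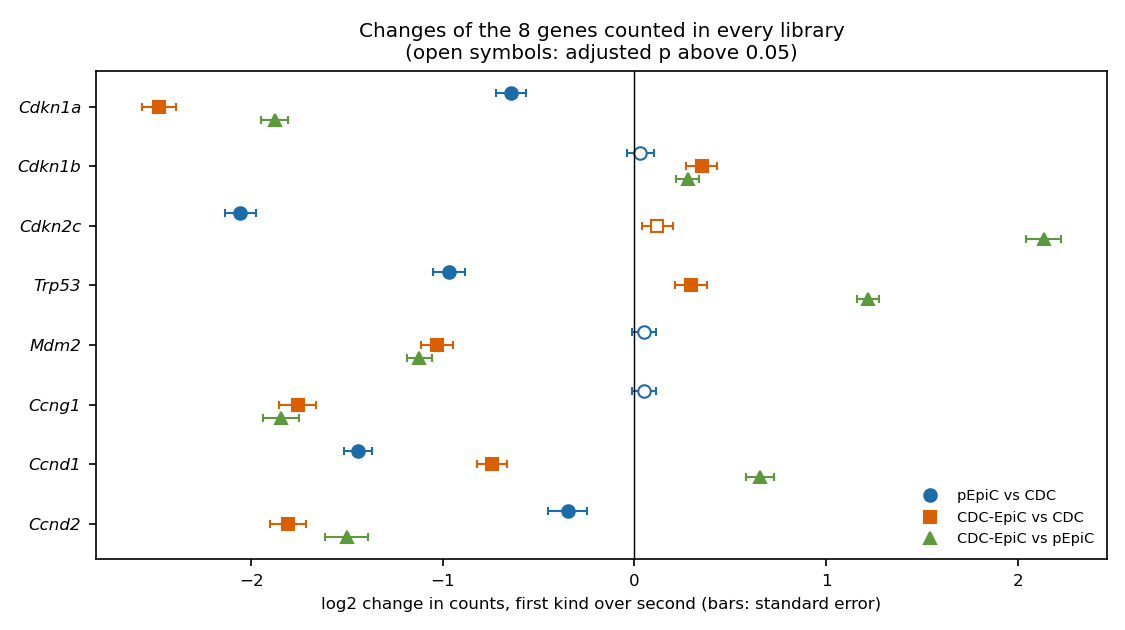
The log2 change in counts (edgeR, with SE) of the 8 genes counted in every library, in the 3 comparisons of pairs of kinds, the first named over the second. Filled symbols passed an adjusted p of 0.05. Trp53 lies right of 0 in both comparisons of CDC-EpiC while Cdkn1a, Mdm2 and Ccng1 lie left of 0, and in pEpiC vs CDC the open symbols of Cdkn1b, Mdm2 and Ccng1 lie next to 0.

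The promoters of the 3 p53 targets are printed because these genes were low together in the clone. Capitals mark a 10-base match to the p53 half-site consensus, which reads the same on both strands, and the runs are the 250 bases before a RefSeq start, 5′ to 3′ on the gene's strand.
Cdkn1a upstream start, chr17:29090729-29090978, plus strand: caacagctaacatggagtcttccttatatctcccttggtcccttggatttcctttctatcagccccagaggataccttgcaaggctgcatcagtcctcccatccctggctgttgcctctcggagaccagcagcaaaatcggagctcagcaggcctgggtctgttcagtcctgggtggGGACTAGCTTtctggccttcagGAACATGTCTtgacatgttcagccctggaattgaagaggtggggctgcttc
Mdm2 start, chr10:117710759-117711008, minus strand: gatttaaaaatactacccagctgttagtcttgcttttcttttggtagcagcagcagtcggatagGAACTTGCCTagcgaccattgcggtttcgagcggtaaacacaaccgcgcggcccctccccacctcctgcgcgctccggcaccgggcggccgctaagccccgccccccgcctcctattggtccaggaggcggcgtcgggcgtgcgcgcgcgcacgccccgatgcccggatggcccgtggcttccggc
Ccng1 start, chr11:40755287-40755536, minus strand: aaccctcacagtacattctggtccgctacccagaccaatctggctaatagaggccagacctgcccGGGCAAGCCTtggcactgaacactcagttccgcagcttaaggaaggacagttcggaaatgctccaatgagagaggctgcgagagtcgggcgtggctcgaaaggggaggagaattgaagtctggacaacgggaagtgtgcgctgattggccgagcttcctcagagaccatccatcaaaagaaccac
Cdkn1a held 2 matches before its upstream start and none before its second start. Mdm2 and Ccng1 held 1 each, and so did Trp53 itself, which rose in the clone. Of the 11 promoters found for 8 of the 10 genes, no other held a match. Of all 32851 promoter windows of this length, 7.13% held at least 1.

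Of 25 other p53 targets, 24 had the counts for a test of CDC-EpiC vs CDC, and 18 were lower, 4 higher and 2 not called. Over all genes tested, 34.6% were lower and 34.2% higher. The median log2 change of the list was −0.81, against 0.0027 for all genes tested. Aen, a nuclease of apoptosis, was lower in the clone (−1.79, SE 0.0809, edgeR adjusted p = 3.82e-11), as was Fas, a death receptor (−1.73, SE 0.101, adjusted p = 7.45e-10). Btg2, an antiproliferative factor, was higher (1.54, SE 0.0818, edgeR adjusted p = 2.35e-10), as was Sesn1, a stress protein that restrains mTORC1 (0.87, SE 0.123, adjusted p = 1.51e-05). Without CDC libraries 1 and 2, which leaves 1 CDC library, the median of the list was −0.85.

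In CDC-EpiC vs pEpiC all 25 could be tested, and 17 were lower, 5 higher and 3 not called, with a median of −0.56 against −0.02 for all genes, of which 41.5% were lower and 40.3% higher. Gadd45a, a stress gene of growth arrest, fell most among the list's genes with at least 10 CPM (−1.96, SE 0.103, edgeR adjusted p = 5.49e-08), followed by Polk, a DNA polymerase that copies past damage (−1.61, SE 0.0758, adjusted p = 2.55e-08). Btg2 (1.51, SE 0.0681, edgeR adjusted p = 1.84e-08) and Pmaip1, the gene of the apoptosis protein Noxa (0.83, SE 0.0753, adjusted p = 3.14e-06), were higher. In pEpiC vs CDC the list was split, with 9 higher, 10 lower and 6 not called, and a median of −0.01 against 0.02 for all genes, of which 39.8% were higher and 38.5% lower. Gadd45a (1.41, SE 0.122, edgeR adjusted p = 2.38e-06) and Sesn1 (1.26, SE 0.0890, adjusted p = 5.68e-07) were higher while Tigar (−1.55, SE 0.0699, adjusted p = 2.63e-08) and Pidd1 (−1.52, SE 0.144, adjusted p = 4.64e-06) were lower. On log2(TPM + 1) values that split was 15 higher and 6 lower, with a median of 0.40 where all genes had 0.41.

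**Figure D5:**
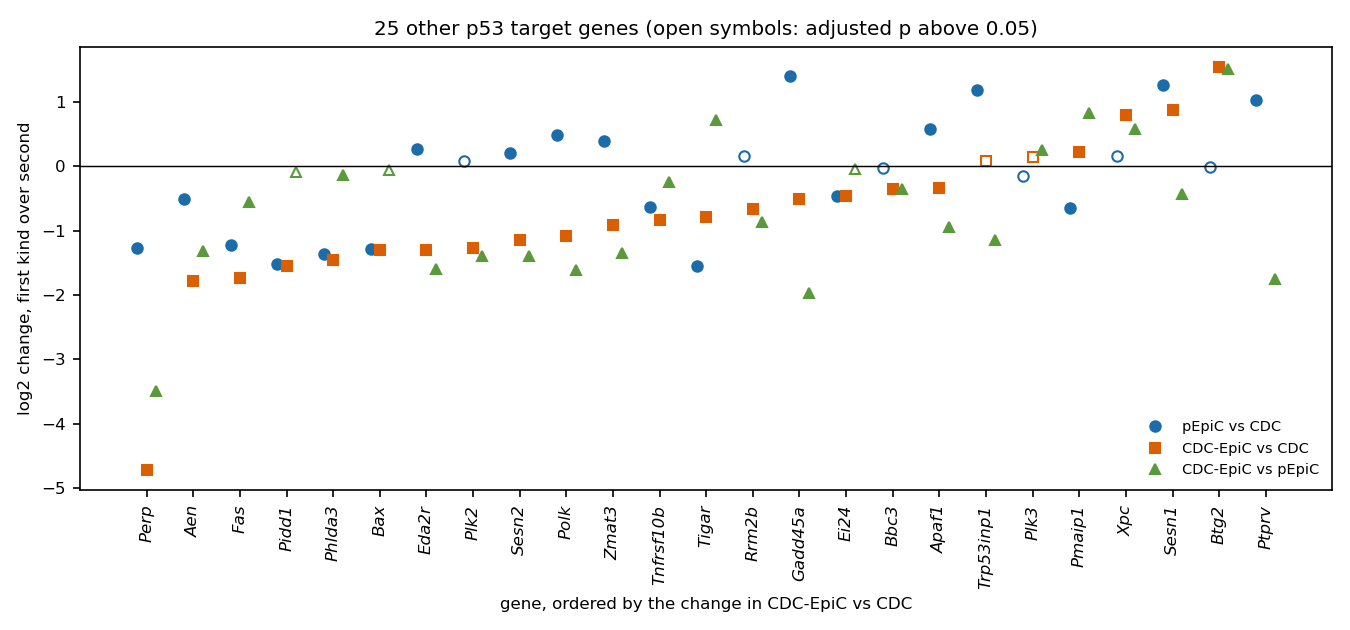
The log2 change in counts (edgeR) of 25 other p53 target genes in the 3 comparisons, ordered by CDC-EpiC vs CDC, the first named over the second. Filled symbols passed an adjusted p of 0.05. Most squares (CDC-EpiC vs CDC) lie below 0, while the circles (pEpiC vs CDC) lie on both sides of it.

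Of 12 listed regulators and relatives of p53, 10 could be tested, and in CDC-EpiC vs CDC 5 were higher and 4 lower. Over all genes tested, 34.2% were higher and 34.6% lower. Trp53bp1, a reader of DNA breaks (0.69, SE 0.0794, edgeR adjusted p = 1.71e-06), and Rchy1, a ubiquitin ligase of p53 (0.73, SE 0.0734, adjusted p = 3.84e-07), were higher in the clone, and the kinases Atr (−1.10, SE 0.102, adjusted p = 1.57e-07) and Hipk2 (−0.60, SE 0.0891, adjusted p = 2.36e-05) were lower. The relatives Trp63 and Trp73 averaged at most 0.0610 CPM in any kind and could not be tested.

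Ccnd1, the gene of cyclin D1, measured 244, 238 and 231 CPM in CDC, 132, 153 and 143 CPM in CDC-EpiC and 95.7, 81.7 and 93.1 CPM in pEpiC. The order was CDC, clone, pEpiC, without overlap. pEpiC was 2.72-fold below CDC (−1.44, SE 0.0728, edgeR adjusted p = 5.59e-08), the clone 1.68-fold below CDC (−0.74, SE 0.0779, edgeR adjusted p = 6.08e-07) and 1.58-fold above pEpiC (0.66, SE 0.0730, edgeR adjusted p = 1.46e-05).

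Ccnd2, the gene of cyclin D2, had another order. It measured 725, 712 and 794 CPM in CDC, 206, 239 and 195 CPM in CDC-EpiC and 501, 637 and 669.9 CPM in pEpiC. The clone was far below the other kinds, 3.50-fold below CDC (−1.81, SE 0.0936, edgeR adjusted p = 1.79e-10) and 2.83-fold below pEpiC (−1.50, SE 0.112, edgeR adjusted p = 7.26e-07). pEpiC lay under CDC in counts (−0.35, SE 0.102, edgeR adjusted p = 0.00987), a difference that depends on the scale, since it was 0.14 on log2(TPM + 1) values, with a limma adjusted p of 0.280. On those values the median of all genes was 0.41, so Ccnd2 lay below it. pEpiC library 1 was the lowest of its kind for Ccnd2, and without it the log2 difference was −0.23 (SE 0.0825, adjusted p = 0.0254).

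The balance of the D cyclins differed as well. The TPM ratio of Ccnd2 to Ccnd1 was 2.01 ± 0.167 in CDC, 0.956 ± 0.0789 in CDC-EpiC and 4.31 ± 0.854 in pEpiC, with no overlap between kinds. Ccnd3, the third D cyclin, which is not among the 10, was at 171.6 ± 16.6, 90.3 ± 7.12 and 131 ± 4.41 TPM in the same order. The 3 D cyclins summed to 500.2 ± 13.3 TPM in CDC, 225 ± 15.6 TPM in CDC-EpiC and 431 ± 40.9 TPM in pEpiC. Between pEpiC and CDC these TPM levels depend on the scale, since the median of all genes was 0.41 on log2(TPM + 1) values. The summed inhibitors over the summed D cyclins came to 1.17 ± 0.0395, 1.05 ± 0.109 and 1.31 ± 0.0985, which overlap between CDC and the clone.

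Around the D cyclins, 9 of 10 other cyclins and CDKs were lower in pEpiC than in CDC and 1 was higher. The exception was Cdk6, a partner of the D cyclins (0.76, SE 0.0929, edgeR adjusted p = 3.12e-05), a difference that was −0.01 with transcript length as an offset, while Cdk1, the mitotic kinase, was lower (−3.23, SE 0.0857, adjusted p = 8.90e-10). In CDC-EpiC vs CDC 7 were lower, 2 higher and 1 not called. Those 2 were the partners of the D cyclins, Cdk4 (0.70, SE 0.0793, edgeR adjusted p = 1.42e-06) and Cdk6 (0.41, SE 0.0872, adjusted p = 6.33e-04), and among those lower was Ccne1, the gene of cyclin E1 (−2.66, SE 0.105, adjusted p = 7.15e-12). Of 10 genes of the retinoblastoma family and E2F factors, 6 were lower in the clone than in CDC, 2 higher and 2 not called. Over all genes tested, 34.6% were lower and 34.2% higher. Rb1 was lower (−1.60, SE 0.0877, edgeR adjusted p = 3.35e-10), as was E2f7 (log2 change −1.43 to −0.84 over the main fit and its alternatives). E2f3, an activating E2F, was higher (0.27, SE 0.0720, edgeR adjusted p = 0.00398).

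Genes of DNA replication and mitosis differed in the order CDC, clone, pEpiC. Of 12 listed, 12 were lower in pEpiC than in CDC, 11 were lower in CDC-EpiC than in CDC with 1 not called, and 11 were higher in CDC-EpiC than in pEpiC with 1 not called. Mcm5, a subunit of the replication helicase, was 3.36 lower on the log2 scale in pEpiC than in CDC (SE 0.103, edgeR adjusted p = 2.30e-09), and Rrm2, a subunit of ribonucleotide reductase, was lower in the clone than in CDC (−1.74, SE 0.112, edgeR adjusted p = 2.39e-09). Cdkn1a, Ccnd1 and Ccnd2 were also lower in counts in both of these kinds than in CDC. The macrophage RNA of pEpiC moves with every comparison of pEpiC, and its part in these differences was not tested.

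The arm of TGF-beta signalling that bears on Cdkn2b and Cdkn1a was read because SB-431542 blocks the receptor. Of 10 listed genes, 3 were higher, 4 lower and 3 not called in CDC-EpiC vs CDC. Pmepa1, a feedback target of the pathway, was lower in the clone (−3.95, SE 0.116, edgeR adjusted p = 2.84e-13), as was Skil, the gene of the SMAD partner SnoN (−1.27, SE 0.133, adjusted p = 5.94e-07). Among the 3 higher were Smad3 (log2 change 0.53 to 0.68 over the main fit and its alternatives) and Zbtb17 (0.75 to 0.93). In pEpiC vs CDC 7 were higher and 2 lower. Skil (0.92, SE 0.0579, edgeR adjusted p = 2.58e-07) and Smad4, the common SMAD (0.98, SE 0.0720, adjusted p = 7.68e-07), were higher. Myc was lower (−1.35, SE 0.105, edgeR adjusted p = 1.11e-06). Whether the clone still received the inhibitor when its RNA was taken is not given in the sources used here.

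Of the regulators of p27, Foxo1, a factor that drives Cdkn1b, was higher in pEpiC than in CDC (1.32, SE 0.116, edgeR adjusted p = 2.67e-06). Cks1b, a cofactor in the degradation of p27 protein, was lower (−1.94, SE 0.0893, edgeR adjusted p = 3.02e-08). Cdkn1b RNA overlapped between these kinds, and p27 protein was not measured here. The annotated end of Ccnd1 overlaps that of Lto1, and Ccnd2 and Cdkn2b are each overlapped by another annotated transcript. No use of strand in the counting is given in the sources used here, and without it reads from the shared stretches cannot be told apart.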

How the data were processed

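The authors deposited 1 table of 18245 genes with RSEM expected counts, FPKM and TPM for each of 9 libraries (BGISEQ-500, oligo(dT)-selected RNA). The labels name HISAT2 2.0.4, Bowtie2 2.2.5, RSEM 1.2.12, DESeq2 1.4.5 and mm10, without their roles. RSEM shares reads between transcripts, so 30.3% of the deposited expected counts were not whole, and they were rounded. The 9 columns of the authors' means were not used. Levels are CPM, counts scaled to library size with TMM factors over all libraries, and TPM where genes are compared with each other. Each pair of kinds was tested with edgeR 4.0.16 (R 4.3.3), quasi-likelihood, on its 6 libraries, after filterByExpr (minimum count 10, minimum total 15) and TMM, with Benjamini-Hochberg adjustment over all genes tested and a threshold of 0.05. The code was tested on simulated data. Library totals of 22008833 to 22756045 counts set the precision, and intervals and floors of 3 counts cover counting error only.

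The 10 genes and all gene lists were chosen with earlier results of these data known. All 10 are named. From each list, those past the threshold and at 10 CPM or more in either kind were ranked by log2 change, and the top 2 and bottom 2 of a comparison may be named, while lists of under 3 genes are named whole. Genes near Cdkn2a and Ccnd3 were chosen after their values were seen. Alternatives were DESeq2 1.42.0, other normalizations and filters, a fit of all 9 libraries, a transcript length offset, limma 3.58.1 on log2(TPM + 1), log2(TPM + 0.1) and log2(FPKM + 1), and leaving out libraries. Promoters, from a RefSeq table on GRCm38, were found for 8 of the 10 genes, and 18117 of the 18245 gene IDs matched RefSeq. Protein sequences were not used here.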

Additional observations from a re-analysis of the deposited data

How the results depend on the processing

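The counts of genes called stayed within 1.5 times their value under every alternative run, at 9624 to 11106 genes for pEpiC vs CDC, 7928 to 9297 for CDC-EpiC vs CDC and 9898 to 11784 for CDC-EpiC vs pEpiC. Of the 8 genes counted in every library, 5 to 6, 6 to 8 and 7 to 8 were called in the same order. Leaving out 1 library at a time gave 10073 to 10838 genes for pEpiC vs CDC and 8248 to 9046 for CDC-EpiC vs CDC. Of 400 alternative values for these 8 genes, 375 kept their direction and side of the threshold, 12 gained and 5 lost a call, and 8 changed sign. In pEpiC vs CDC, Cdkn1b was −0.030 to 0.085 with 1 library left out, lowest without CDC library 1. It was −0.10 without CDC libraries 1 and 2, an alternative chosen after seeing the data that leaves 1 CDC library. With a transcript length offset Mdm2 was −0.040, Ccng1 −0.066, Cdk6 −0.011, E2f3 −0.039 and Atm −0.28 in that comparison, and Cdk6 0.49 in CDC-EpiC vs pEpiC. On both TPM scales Ccnd2 was 0.14 in pEpiC vs CDC and Cdkn1b −0.10 in CDC-EpiC vs pEpiC, while Hipk2 was 0.10, and Smad7 0.10 with a pseudocount of 1 and 0.11 with 0.1, in pEpiC vs CDC. The median of all genes on these TPM scales was 0.41 and 0.50 in pEpiC vs CDC, and −0.33 and −0.38 in CDC-EpiC vs pEpiC. The cause was not tested. Ccnd2 in pEpiC vs CDC had an adjusted p of 0.0523 by library size alone and 0.0626 on log2(FPKM + 1). Genes with a few counts, Cdkn2a and Cdkn2b outside pEpiC, are limited by depth. No paired analysis was possible because the columns carry no replicate numbers that tie libraries of different kinds together.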

Other observations

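Genes often read as marks of senescence or its secretions were mixed in pEpiC, where Cdkn2a and Cdkn2b were counted. Of 12 listed genes, 6 were higher, 5 lower and 1 not called in pEpiC vs CDC, while 3 were higher and 9 lower in CDC-EpiC vs CDC. Over all genes tested, 39.8% were higher and 38.5% lower in the first comparison, and 34.2% and 34.6% in the other. Igfbp3, an insulin-like growth factor binding protein, was at 18.5 ± 5.19 CPM in CDC, 275 ± 65.8 CPM in CDC-EpiC and 511 ± 38.5 CPM in pEpiC. Its relative Igfbp5 was at 0.911 ± 0.0830, 5.68 ± 0.282 and 551 ± 58.7 CPM in the same order, so it was near its pEpiC level in neither other kind. Il6, a cytokine of the secretory phenotype, ran the other way, at 57.2 ± 3.32 CPM in CDC, 0.580 ± 0.150 CPM in CDC-EpiC and 4.14 ± 0.163 CPM in pEpiC. Lmnb1, the gene of lamin B1, whose loss is a mark of senescence, was lower in pEpiC than in CDC (log2 change −2.18, SE 0.0645, edgeR adjusted p = 1.87e-09). Glb1, the gene of the lysosomal beta-galactosidase, was higher in the clone than in CDC (1.26, SE 0.0811, adjusted p = 2.36e-09), where neither Cdkn2a nor Cdkn2b was above 1 count.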
